A study of Mus musculus and Homo sapiens with 27 samples.

Results

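The genes described here are the ligands and receptors of the tumour necrosis factor (TNF) superfamily, the TRAF adaptor proteins, the caspases with their nearest regulators, and the inhibitor of apoptosis (IAP) proteins. They are 48 of 4935 genes measured on 2 spotted cDNA arrays of the lymphochip type, which carry genes expressed in lymphocytes. On the human array 46 of 4604 genes were taken by their symbols, namely those beginning with TNFRSF, TNFSF or BIRC, those beginning with TRAF or CASP and then a digit, and LTA, LTB, TNF, FAS, CFLAR, XIAP and APAF1. TNFRSF17 was left out of the set. On the mouse array Traf4 and Birc3 were taken of 331 genes. TRAF4 and BIRC3, their human counterparts, were not among the human features with a single symbol and were not analysed here.

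Ligands of the TNF superfamily bind receptors on the surface of the same or another cell. Death receptors such as FAS recruit an adaptor and an initiator caspase and so start apoptosis, while other receptors recruit TRAF proteins and activate NF-kB, which promotes the survival of B cells. IAP proteins bind caspases or act as ubiquitin ligases on TRAF complexes, and thus sit between both arms. IRF4 is a transcription factor that B cells need in order to become plasma cells, and the study varied its dose.

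The human arrays compared OCI-Ly7, a diffuse large B-cell lymphoma line of the germinal-centre type, carrying human IRF4 in the vector Vxy with the same line carrying the empty vector. There was 1 array at day 2, 2 at day 3 (repeat 1 and repeat 2) and 1 at day 5. The sample labels name the control as empty vector, whereas the design text describes control cells that were not transduced. The sample labels were followed, and if the design text is right the vector itself also differs between the arms. Both arms are 1 tumour line, and the control RNA lies on each array. The mouse arrays compared splenic B cells of adult Balb-c mice with 1 functional Irf4 allele (Irf4+/-, Het) or none (Irf4-/-, KO), untreated (0 h) or cultured with lipopolysaccharide (LPS) for 24, 48 or 96 h. Het cells had 3, 2, 2 and 4 arrays at these times and KO cells had 3 at each time. No array held wild-type cells in the comparisons made here, and every mouse RNA was set against a pool of B-cell, T-cell and macrophage lines. The design text calls the repeats biological, but nothing ties an array to an animal. All values are log2 ratios centred on the median of each array.

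The direction of the ratios is not given in the sources used here. It was taken from the dyes in the labels as IRF4 vector over empty vector and mouse B cells over pool, and every sign would turn if it ran the other way. The mouse direction is likely, since Cd79b, a B-cell receptor chain, lay above the pool on 23 of 23 arrays (median 2.56) and Cd3g, a T-cell receptor chain, lay above it on 0 of 23 (median -2.43). In the human comparison 1 of the 4 IRF4 features read above 0 on all 4 arrays (mean 0.69), but the other 3 lay below 0 on 3 arrays each, and the gene mean was -0.03 ± 0.47 (SD, n = 4), so IRF4 itself did not settle the direction. TNFRSF17, the plasma-cell receptor BCMA, averaged 3.36 ± 0.53 (SD, n = 4), 10.3-fold higher with the IRF4 vector (limma adjusted p = 0.0455). Both its features lay above 0 on all 4 arrays. However, TNFRSF17 did not pass with deposited values, with centring on named features or with the median of features. Nor did it pass when any single array was left out. PRDM1, a regulator of plasma cells, averaged 1.83 ± 0.68 without passing the threshold (adjusted p = 0.119). Of 5 plasma cell markers 3 lay above 0 on all 4 arrays, of 8 B cell markers 2 did and 3 lay below 0, and 0 of the 10 T and NK cell and 0 of the 6 myeloid markers lay above 0 on all 4. Because the RNA is from bulk cultures, fewer cells of a type and less RNA per cell cannot be told apart.

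None of the 46 genes taken passed the threshold in OCI-Ly7. TNFRSF17, which passed in this fit but not under the alternatives named above, is a TNF receptor family gene outside the set. With an adjusted p under 0.05 over all human genes by limma, 0 of 46 were called, beside 5 of 4604 genes (0.109%), of which 2 were higher and 3 lower. At an unadjusted p under 0.05 there were 8 of 46, beside 23.9% of all genes. The lowest adjusted p was 0.13, for CASP2. Tested feature by feature, 0 of the 110 features of these genes were called, beside 0% of 15246 features, and 19 features had an unadjusted p under 0.05 (17.3%, against 22.5% of all features). The mean ratios lay mostly on the lower side: of 46 genes 33 averaged below 0 (71.7%), beside 56.7% of all genes, and the median was -0.52 beside -0.14. In the deposited values before centring the medians were -0.72 and -0.33, so centring moved both upwards. Without the day 5 array the medians were -0.29 and -0.09. With array weights 60.9% of the set averaged below 0, beside 58.2% of all genes, so the 2 shares were then close. On all 4 arrays 3 genes lay above 0, beside 17% of all genes, and 9 lay below 0, beside 21%. The lower median was seen in the low range of the authors' database numbers (day 3 repeat 1 and day 5, median -0.46 beside -0.06 for all genes) and in the middle range (day 2 and day 3 repeat 2, -0.26 beside -0.13), where 60.9% of the set and 57.5% of all genes averaged below 0.

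**Figure D1:**
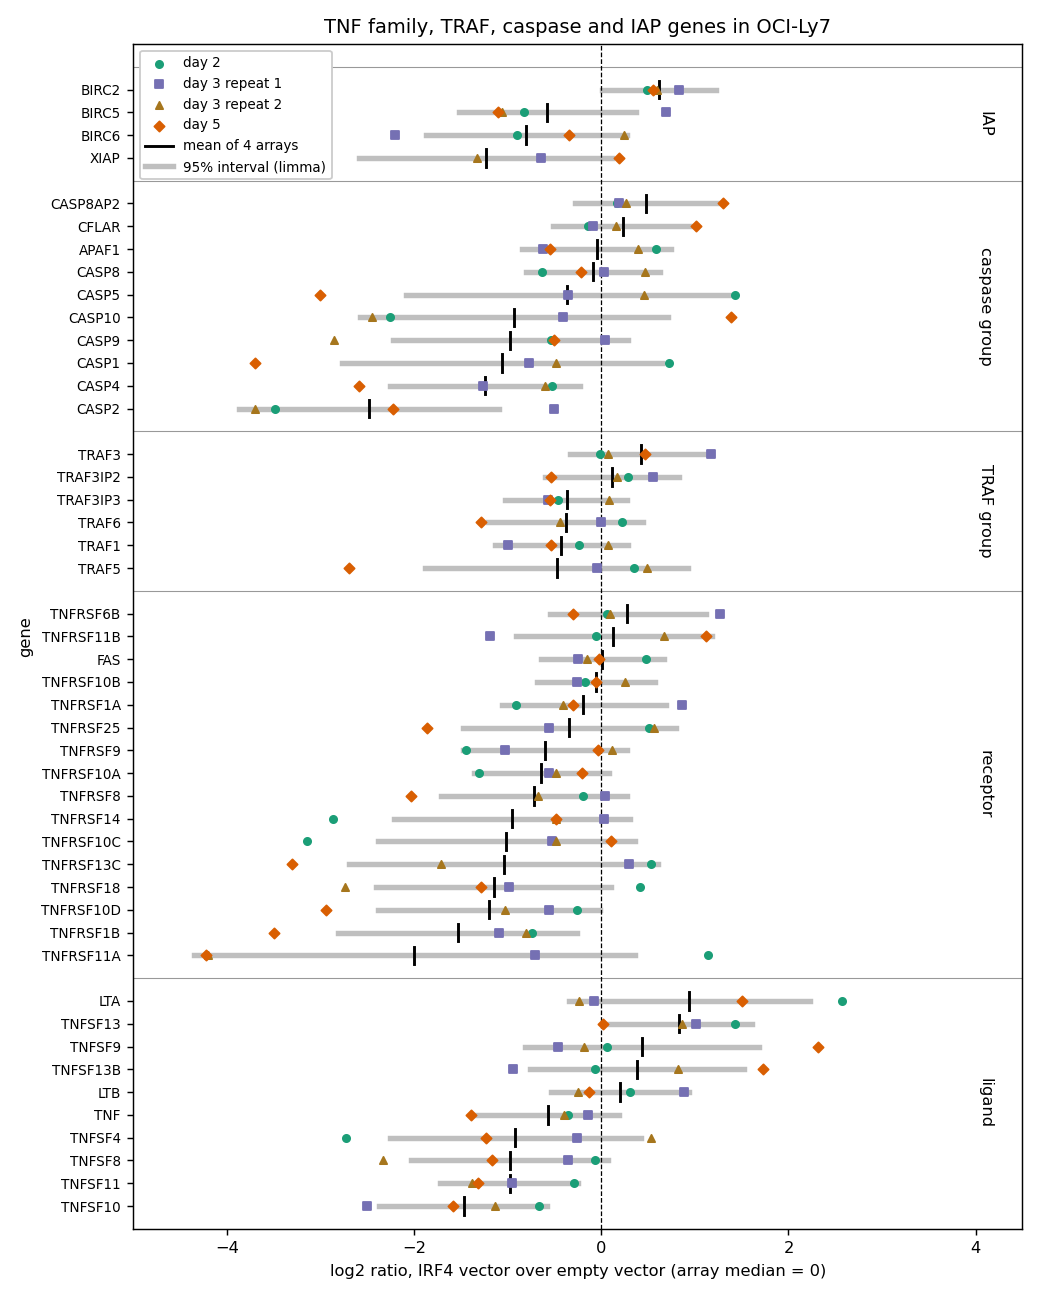
Log2 ratio of IRF4 vector over empty vector (horizontal axis) for each of the 46 human genes (vertical axis), by role; symbols are the 4 arrays, black ticks their mean and grey bars limma's 95% interval. Most means lie left of 0, among the receptors 13 of 16, and many of the lowest values are day 5 diamonds.

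**Figure D2:**
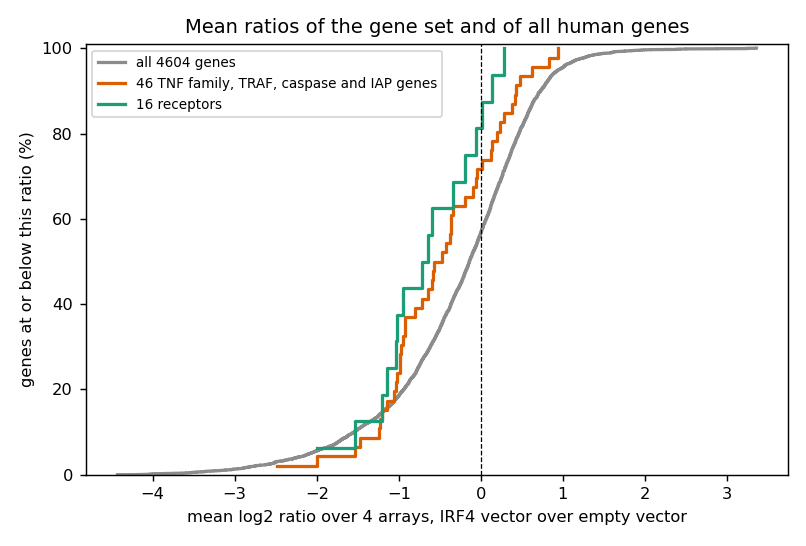
Share of genes (vertical axis, percent) whose mean log2 ratio over 4 arrays is at or below the value on the horizontal axis, for all 4604 human genes (grey), the 46 genes described (orange) and the 16 receptors (green). The orange and green curves cross 0 at higher shares than the grey one, 71.7% and 81.2% beside 56.7%, and end at 0.94 and 0.28 while the grey curve goes on to 3.36.

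The 10 ligands were split evenly, with 5 means above and 5 below 0 and a median of -0.19. TNFSF10 (TRAIL, which triggers apoptosis through death receptors) read -0.67 at day 2, -2.50 and -1.14 at day 3 and -1.58 at day 5. All 4 arrays were below the empty vector, the mean was -1.47 ± 0.78 (SD, n = 4), 2.78-fold lower, and the adjusted p of 0.133 did not pass. TNFSF11 (RANKL, the ligand of TNFRSF11A) was also below 0 throughout, at -0.29, then -0.95 and -1.38, then -1.32. Its mean of -0.98 ± 0.50 (SD, n = 4) had an adjusted p of 0.157. TNFSF8, the ligand of CD30, gave -0.07 at day 2, -0.36 and -2.33 at day 3 and -1.17 at day 5, with a mean of -0.98 ± 1.01. The day 2 value was close to 0, and the repeats of day 3 stood 1 on either side of the mean. TNF, the founding member of the family, averaged -0.57 ± 0.56 with 4 values between -1.39 and -0.14.

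On the other side lay TNFSF13 (APRIL, a survival factor for plasma cells that binds TNFRSF17), at 1.43 at day 2, 1.01 and 0.86 at day 3 and 0.02 at day 5. It was the only ligand above 0 on all 4 arrays, although barely so at day 5, and its mean was 0.83 ± 0.59 (SD, n = 4; 1.78-fold; adjusted p = 0.193). LTA (lymphotoxin alpha) had the highest mean of the set, 0.94 ± 1.34, but this came from 2.57 at day 2 and 1.5 at day 5, while both day 3 arrays were just below 0 (-0.08 and -0.24). With the day 3 arrays alone LTA averaged -0.16. TNFSF13B (BAFF, the B-cell survival factor) averaged 0.38 ± 1.15 and ranged from -0.94 to 1.73, so its arrays straddled 0. TNFSF9, TNFSF4 and LTB averaged between -0.92 and 0.43, each with arrays of either sign.

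Of the receptor means 13 of 16 were below 0, with a median of -0.68, but only 3 were below 0 on every array and 0 above 0 on every array. TNFRSF1B (TNF receptor 2, which signals to NF-kB) read -0.74 at day 2, -1.09 and -0.80 at day 3 and -3.50 at day 5. Its mean of -1.53 ± 1.32 (SD, n = 4), 2.89-fold lower, had an adjusted p of 0.171, and the day 5 array stood well below the other three. TNFRSF10D, a decoy receptor for TRAIL, was also lowest at day 5, at -0.26, then -0.56 and -1.03, then -2.94 (mean -1.20 ± 1.21, adjusted p = 0.208). Neither of its features, with means of -0.32 and -2.08, was itself below 0 on every array. TNFRSF10A (death receptor 4 for TRAIL) read -1.31 at day 2, -0.56 and -0.48 at day 3 and -0.21 at day 5, with a mean of -0.64 ± 0.47. Of the other TRAIL receptors, TNFRSF10B averaged -0.06 ± 0.22. This mean joined 2 features of opposite sign, with means of -0.59 and 0.47, each of a single sign on all 4 arrays. The decoy TNFRSF10C averaged -1.02 ± 1.45 through a single low array (-3.14 at day 2, the others between -0.53 and 0.10).

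TNFRSF11A (RANK, the receptor of TNFSF11) had the lowest receptor mean and the widest spread of the set. It read 1.14 at day 2, -0.71 and -4.20 at day 3 and -4.22 at day 5, a mean of -2.0 ± 2.67 (SD, n = 4; adjusted p = 0.253) that rests on 2 of the 4 arrays and on 1 feature. TNFRSF6B, a soluble decoy that binds FAS ligand, had the highest receptor mean, 0.28 ± 0.68. Its value of 1.27 on day 3 repeat 1 stood above the others (0.06, 0.09 and -0.30), and without that array the mean was -0.05. FAS itself averaged 0.01 ± 0.32 with values between -0.25 and 0.48, and its 95% interval ran from -0.64 to 0.67. This mean joined 4 features that disagreed, with means of 1.2, 0.09, -0.56 and -0.68. The latter 2 features lay below 0 on all 4 arrays. TNFRSF13C, the BAFF receptor of mature B cells, read 0.53 at day 2, 0.30 and -1.71 at day 3 and -3.30 at day 5, again with both signs. The remaining receptors averaged between -1.15 (TNFRSF18) and 0.13 (TNFRSF11B).

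The TRAF genes showed the smallest range of means, from -0.47 to 0.42, with 2 above and 4 below 0, and 0 of 6 had a single sign on all arrays. TRAF3, which with TRAF2 and the cellular IAPs holds the NF-kB-inducing kinase MAP3K14 at a low level, read -0.01 at day 2, 1.17 and 0.07 at day 3 and 0.47 at day 5 (mean 0.42 ± 0.54, adjusted p = 0.41). TRAF5, an adaptor of CD40 and related receptors, had the lowest mean, -0.47 ± 1.49, through -2.69 at day 5 alone. Its other arrays lay at 0.35, -0.05 and 0.49, and without day 5 the mean turned to 0.26. TRAF1, a TRAF gene that NF-kB induces, averaged -0.43 ± 0.46, and TRAF6, used by Toll-like receptors as well, averaged -0.38 ± 0.67. TRAF3IP2 and TRAF3IP3, which bind TRAF3, averaged 0.12 ± 0.47 and -0.37 ± 0.31.

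Among 10 caspases and their regulators 8 means were below 0, with a median of -0.65. CASP2, an initiator caspase activated on the PIDD-CRADD platform, had the lowest mean of the whole set. It read -3.49 at day 2, -0.50 and -3.70 at day 3 and -2.23 at day 5, so the 2 arrays of day 3 were its highest and its lowest. The mean of -2.48 ± 1.47 (SD, n = 4), 5.58-fold lower, had a 95% interval from -3.87 to -1.09 and an adjusted p of 0.13. CASP4, an inflammatory caspase that senses LPS inside the cell, read -0.53, then -1.26 and -0.60, then -2.59 (mean -1.24 ± 0.96, adjusted p = 0.169). The other inflammatory caspases had arrays of either sign. CASP1, which matures interleukin-1 beta, averaged -1.06 ± 1.88 and CASP5 averaged -0.37 ± 1.90, and in both the lowest value was at day 5 (-3.70 and -3.00).

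CASP8, the initiator at death receptors, averaged -0.09 ± 0.46, and CFLAR (c-FLIP, its inhibitor) averaged 0.23 ± 0.54. APAF1, the scaffold of the apoptosome, averaged -0.05 ± 0.62 and CASP9, the caspase it activates, averaged -0.97 ± 1.29 with 1 low array (-2.86, day 3 repeat 2). CASP10, a close relative of CASP8, ranged from -2.45 to 1.39. CASP8AP2 (FLASH, named for binding CASP8 and also needed for histone mRNA processing) was the only gene of the group above 0 on every array, at 0.17 at day 2, 0.19 and 0.26 at day 3 and 1.30 at day 5. Its mean of 0.48 ± 0.55 (SD, n = 4) had an adjusted p of 0.362, and day 5 supplied most of it.

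Of the 4 IAP genes, BIRC2 (cellular IAP1, a ubiquitin ligase of the TRAF2 complex) stood above the empty vector and the other 3 averaged below it. BIRC2 read 0.49 at day 2, 0.83 and 0.60 at day 3 and 0.55 at day 5. This was the tightest gene of the set: the mean was 0.62 ± 0.15 (SD, n = 4), 1.53-fold higher, with a limma interval from 0.01 to 1.23 and an adjusted p of 0.207. XIAP, the IAP that inhibits caspases directly, read -3.15, then -0.64 and -1.33, then 0.19 (mean -1.23 ± 1.42), so the arrays spanned more than 3 log2 units on the single XIAP feature. BIRC5 (survivin, a mitotic protein as well) lay between -1.10 and -0.83 on 3 arrays and at 0.69 on day 3 repeat 1. BIRC6, a very large ubiquitin-conjugating IAP, averaged -0.80 ± 1.04, from -2.20 on day 3 repeat 1 to 0.24 on day 3 repeat 2.

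The arrays differed widely for many of these genes. The median SD over the 4 arrays was 0.94 for the 46 genes and 0.69 for all genes, from 0.15 (BIRC2) to 2.67 (TNFRSF11A). The day 5 array held the lowest of the 4 values for 16 genes (34.8%, beside 36.5% of all genes), and its deposited values had an SD of 2.04, beside 1.25 to 1.51 on the others. Very low values were more frequent than very high ones on the whole array. More than 4 log2 units below 0 lay 4.61% of all feature values, and more than 4 above it 0.323%. For features of the 46 genes these shares were 5.23% and 0.909%, and day 5 held 12 of their 23 low values. The day 3 arrays gave the same sign for 26 of 46 genes (56.5%, beside 60.2% of all genes), and both were below 0 for 19 (41.3%, beside 33.3%). Where day means were given equal weight, 13 of the 46 genes passed, beside 22.4% of all genes, and with the day 3 arrays alone 4 did (CASP2, TNFRSF11A, TNFRSF18 and TNFSF10), beside 4.26%. Those fits keep 1 residual degree of freedom and take nearly all of their spread from other genes.

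Different features of a gene often disagreed. Of 36 genes with 2 or more features 17 had all feature means on the same side of 0 (47.2%, beside 46% of all such genes), and of 13 with 3 or more features only BIRC2 had every feature on the same side on every array (7.69%, beside 4.99%). The BIRC2 features averaged 0.37, 0.55 and 0.93. CASP2 combined 1 feature between -5.53 and -0.76 with another between -2.52 and 1.07, which lay above 0 at day 5. The TNFSF10 features were close at day 2 and day 3 repeat 1 and parted at day 5 (-3.98 and 0.82). Both TNFRSF1B features were below 0 on all 4 arrays, with means of -1.76 and -1.30, and so were both CASP4 features (-0.62 and -1.86).

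Several genes had features of opposite sign that each held on all 4 arrays. For TNFRSF8 (CD30, the receptor of TNFSF8), of its 4 features 2 were above 0 on all arrays, with means of 0.52 and 1.26, and 2 were below 0 on all arrays, with means of -1.90 and -2.76, so that the gene mean of -0.72 ± 0.93 matched none of them. LTA had 1 feature at 2.69 and the other at -0.82, each of a single sign on all arrays. The same held for TNFRSF10B (-0.59 and 0.47) and TNFRSF25 (-1.79 and 1.11). LTB (lymphotoxin beta, which forms a membrane complex with LTA) had 1 feature at 2.95 and another at -1.64 of this kind, the widest such gap in the set, and 5 features of mixed sign. For TNF 5 features averaged between -2.25 and 1.27, and the TNFSF13 mean came from 1 feature at 2.51, while the others averaged 0.45 and -0.47. Where the feature with the smallest spread stood for the gene, TNFRSF8 turned to 1.26, TNF to 1.27, LTA to -0.82 and TRAF5 to 0.48. Other genes turned as well, among them CASP9 (0.21) and CASP8 (0.47). Which transcript each spot detects was not tested here.

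**Figure D3:**
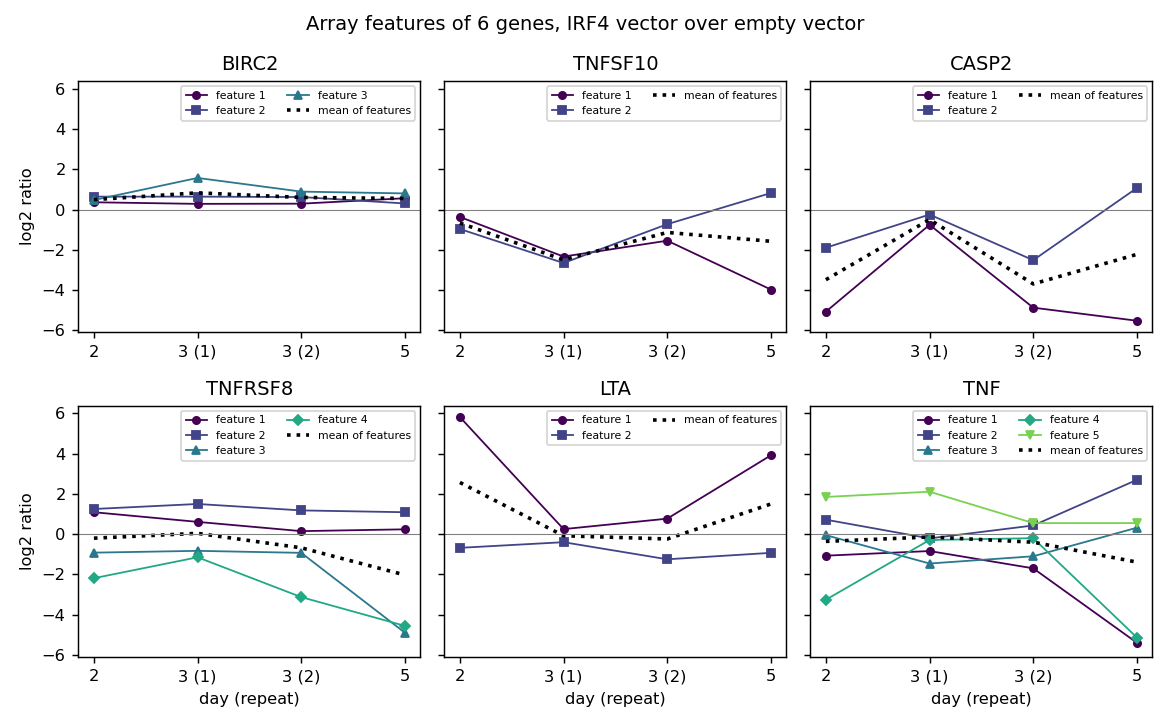
Log2 ratio of IRF4 vector over empty vector (vertical axis) on each array (horizontal axis, day with the repeat in brackets) for every feature of 6 genes; each line joins the values of 1 feature and the dotted line is their mean. The 3 BIRC2 features run together just above 0, the TNFSF10 features part at day 5, the CASP2 features lie apart on most arrays, and TNFRSF8, LTA and TNF each have features on opposite sides of 0.

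Genes that act next to the set were taken from lists, and 0 passed the threshold in any of them, beside the same 0.109% of all genes. Of 14 adaptors and kinases of TNF and death receptors 8 averaged above and 6 below 0, with a median of 0.26 and an unadjusted p under 0.05 for 2. CRADD, which couples CASP2 to its platform, was highest at 0.88 ± 0.26 (SD, n = 4; adjusted p = 0.155) and above 0 on all 4 arrays, while CASP2 itself was below 0 on all 4. IKBKG (NEMO, the regulatory subunit of the IKK complex) was lowest at -1.77 ± 2.03, ranging from -4.30 at day 5 to 0.33 on day 3 repeat 2. Among 9 executioners and apoptosome partners 5 were above and 4 below 0 (median 0.12; 1 with an unadjusted p under 0.05). DIABLO, a mitochondrial protein that displaces IAPs from caspases, read 1.16 at day 2, 1.91 and 1.75 at day 3 and 0.76 at day 5, a mean of 1.39 ± 0.53 (2.63-fold; adjusted p = 0.13). The lowest was the inflammasome sensor NLRP1, at -0.83 ± 1.02.

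Of the NF-kB subunits and inhibitors 8 of 9 means were below 0, with a median of -0.66, beside 56.7% and -0.14 for all genes. An unadjusted p under 0.05 was found for 2 of 9, beside 23.9% of all genes, which is near the background. REL (c-Rel, the subunit most used by lymphocytes) read -2.60 at day 2, -1.06 and -2.21 at day 3 and -4.07 at day 5. The mean was -2.48 ± 1.24 (SD, n = 4), 5.59-fold lower, with an adjusted p of 0.124. RELA was the only gene of the list with a mean above 0, 0.13 ± 0.54, and turned to -0.07 when the deposited values were left uncentred. The 14 BCL2 family genes were balanced (6 above, 8 below; median -0.05; 3 with an unadjusted p under 0.05). HRK, a pro-apoptotic BH3-only gene, lay between 0.83 and 1.29 on all arrays (mean 0.99 ± 0.21, adjusted p = 0.134), and BAD, another, averaged -2.01 ± 1.91 (adjusted p = 0.18), from -4.43 at day 5 to -0.16 on day 3 repeat 1.

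**Figure D4:**
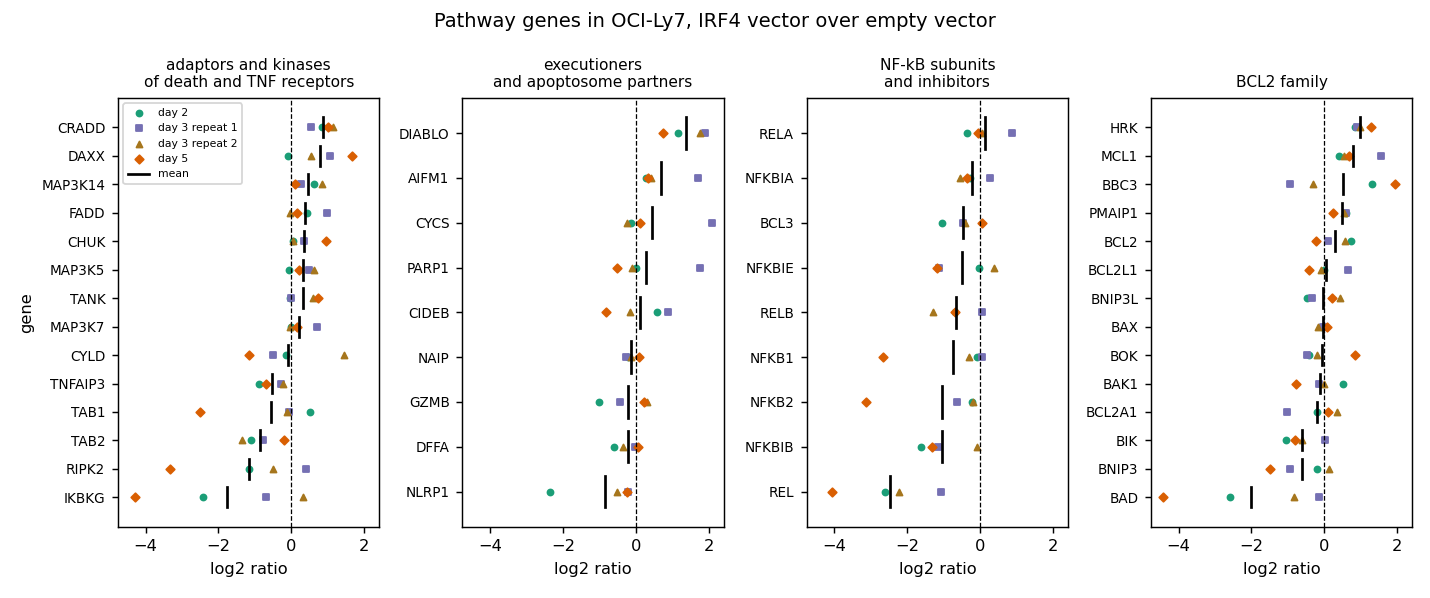
Log2 ratio of IRF4 vector over empty vector (horizontal axis) for the genes of 4 pathway lists (vertical axes); symbols are the 4 arrays and black ticks their means. Of 9 NF-kB genes 8 have means left of 0, REL lowest at -2.48, whereas DIABLO (1.39), CRADD (0.88) and HRK (0.99) lie right of 0 on every array.

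In mouse B cells the members were Birc3, the cellular IAP that NF-kB induces, and Traf4, an unusual TRAF studied mostly outside lymphocytes. Each was read by 2 features. RefSeq places Birc3 on chromosome 9 and Traf4 on chromosome 11 of GRCm38.p6, both on the minus strand. It lists Birc2 and cIAP-1 among the synonyms of Birc3, so which of these near copies the Birc3 features detect is uncertain. Since the mouse arms differ in a transcription factor, the sequence directly upstream of each gene's RefSeq span is shown, 5' to 3', with GAAA, the core that IRF proteins contact, and its reverse complement in capitals. Birc3 is shown over chr9:7873206-7873420 and Traf4 over chr11:78165580-78165800.
Birc3: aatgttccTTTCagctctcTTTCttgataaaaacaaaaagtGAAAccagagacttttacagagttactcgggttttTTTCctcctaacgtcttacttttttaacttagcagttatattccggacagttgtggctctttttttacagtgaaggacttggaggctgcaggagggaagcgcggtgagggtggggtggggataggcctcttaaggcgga
Traf4: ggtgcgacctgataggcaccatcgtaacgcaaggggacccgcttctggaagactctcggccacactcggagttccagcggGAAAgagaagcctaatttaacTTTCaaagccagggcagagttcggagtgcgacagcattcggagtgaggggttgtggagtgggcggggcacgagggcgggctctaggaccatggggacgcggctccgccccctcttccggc

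Over the full RefSeq promoter windows of 300 bases (250 before to 50 after the start), searched on both strands, neither gene held the core of the interferon-stimulated response element (GAAA, 2 bases of any kind, GAAA), the ETS-IRF composite (GGAA, 2 bases of any kind, GAAA) or the NF-kB consensus. Of 32851 windows of this length 3.44%, 2.72% and 8.46% hold them. The single GAAA core occurred 6 times in the Birc3 window and 3 times in the Traf4 window, and 89.2% of all windows hold it at least once. The windows differ in base composition, with 43% G or C for Birc3 and 68% for Traf4, beside a median of 52.7%.

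Birc3 was above the pool on 23 of 23 arrays with both features. The lowest value was 0.42, the median 1.42 (2.67-fold over the pool) and the highest 2.51, and its mean ranked 24 of 331 genes. Of all genes 26 (7.85%) were above the pool on every array. At 0 h Het cells read 2.11, 2.09 and 1.24 and KO cells 2.51, 1.76 and 1.42, so the genotypes overlapped. At 24 h Het cells read 2.02 and 2.06 and KO cells 0.42, 2.14 and 1.13, the first on an array where both features were low (0.04 and 0.81). At 48 h the values were 2.43 and 1.27 in Het cells and 2.43, 1.44 and 1.44 in KO cells, which again overlap. At 96 h Het cells read 0.80, 1.10, 1.17 and 1.38 and KO cells 0.99, 0.69 and 1.01, the lowest group means of the series (1.11 ± 0.24 SD, n = 4, and 0.90 ± 0.18 SD, n = 3). KO minus Het was 0.08 ± 0.45 (SE) in untreated cells, -0.81 ± 0.50 after 24 h, -0.08 ± 0.50 after 48 h and -0.21 ± 0.42 after 96 h, and none passed (limma adjusted p from 0.425 to 0.997). The value after 24 h was -0.406 without KO 24 h replicate 1, -1.27 without KO 24 h replicate 2 and -0.454 with 3 KO arrays whose channel fields name Het cells taken as Het. The 95% interval at 96 h, from -1.09 to 0.66, still allows a difference of either sign.

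From 0 to 96 h Birc3 differed by -0.70 ± 0.42 (SE) in Het cells (adjusted p = 0.197) and by -1.0 ± 0.45 in KO cells (adjusted p = 0.179), where the medians of all 331 genes were -0.42 and -0.6, and the responses of the genotypes differed by -0.29 ± 0.61 (adjusted p = 0.835). With array weights the KO value was -0.879 and passed (adjusted p = 0.0462, beside a range of 0.0462 to 0.568 over its alternatives). The share of all 331 genes that passed with these weights was not computed. All 96 h arrays lie in the high range of the authors' database numbers, and Birc3 differed between these ranges: its median was 2.09 on the 5 arrays of the low range, 2.14 on the 5 of the middle range and 1.17 on the 13 of the high range. Within the high range alone, with only replicate 3 of each genotype left at 0 h, the Het value was -0.128 and the KO value -0.517. The part of the database range in the result was not tested further.

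Traf4 was above the pool on only 2 of 23 arrays, replicate 1 of the untreated KO cells and replicate 1 of the KO cells given LPS for 24 h, with a median of -0.43 (0.74 of the pool) and a rank of 283 of 331. At 0 h Het cells read -3.28, -2.73 and -0.47 and KO cells 1.01, -1.34 and -0.64. The lowest KO value lay below the highest Het value, so the groups overlapped despite a mean difference of 1.83 ± 0.76 (SE; adjusted p = 0.213). At 24 h Het cells read -3.95 and -0.62 and KO cells 0.80, -0.27 and -0.26. By the titles these groups do not overlap, but the share of the 331 genes without overlap was not computed. The channel fields of KO replicate 3, the value of -0.26, name Het cells, and taken as Het it makes the groups overlap. The difference of 2.38 ± 0.85 also did not pass (adjusted p = 0.42). The later times were close to each other: -0.16 and -0.43 in Het cells against -0.28, -0.32 and -0.32 in KO cells at 48 h, and -0.65, -1.03, -0.43 and -0.36 against -0.23, -1.21 and -0.66 at 96 h. KO minus Het was -0.01 ± 0.85 and -0.08 ± 0.71 there.

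The low Het values of Traf4 lay on 3 arrays of the low database range, on 2 of them in feature 2 far more than in feature 1. The 2 KO arrays above the pool, at 1.01 and 0.80, were of the low range too. Traf4 read from -1.34 to -0.16 in the middle range and from -1.21 to -0.23 in the high range. Feature 2 read -7.55 and -2.99 on Het 0 h replicates 1 and 2 and -7.48 on Het 24 h replicate 1, where feature 1 read 0.99, -2.48 and -0.43, so both features were low on replicate 2 at 0 h. By feature the difference at 0 h was 0.41 ± 0.71 (SE) and 3.26 ± 1.51, and at 24 h it was 0.64 ± 0.79 and 4.11 ± 1.68. Without the low range, which left a single Het array at each time, KO minus Het was -0.523 at 0 h and 0.356 at 24 h. With values beyond 6 log2 units taken as missing it was 0.411 and 0.614. Leaving out the remaining Het arrays did the reverse. Without Het 0 h replicate 3 the difference at 0 h was 2.68 and passed (adjusted p = 0.0225, range over alternatives 0.0225 to 0.975), as did Het 96 h minus 0 h at 2.39 (0.0109, range 0.0109 to 0.903). The share of all mouse genes that passed without this array was not computed. Without Het 24 h replicate 2 the difference at 24 h was 4.04, with a single Het array assumed to vary like the other groups. With all arrays, Het 96 h minus 0 h was 1.54 ± 0.71 (adjusted p = 0.113), KO 96 h minus 0 h was -0.37 ± 0.76, and the difference of these responses was -1.92 ± 1.04 (adjusted p = 0.449).

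**Figure D5:**
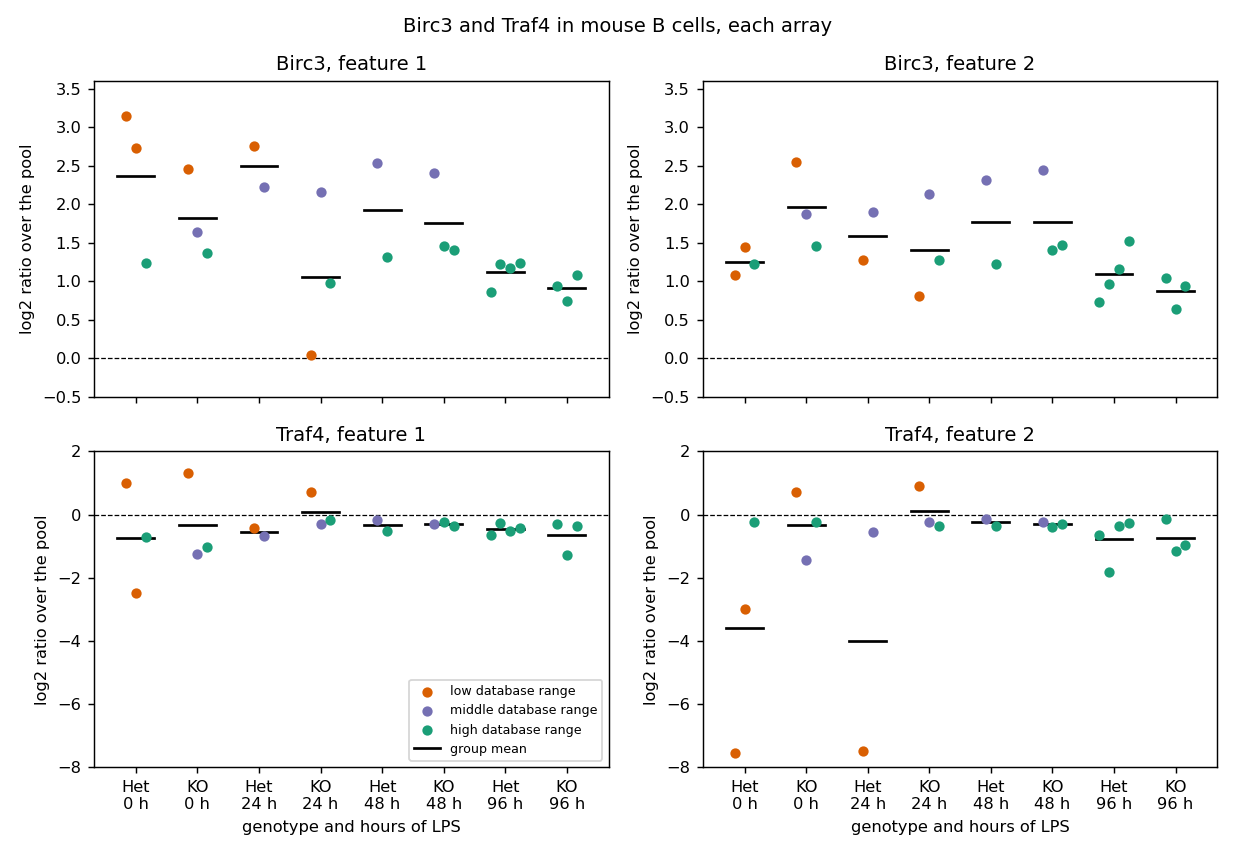
Log2 ratio over the pool (vertical axes) of the 2 features of Birc3 and of Traf4 on every mouse array, by genotype and hours of LPS (horizontal axis); colours give the range of the authors' database numbers and black lines the group means. Both Birc3 features stay above 0 on all 23 arrays, and Traf4 feature 2 falls to -7.55 and -7.48 on 2 Het arrays of the low range where feature 1 does not.

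Neither gene passed in any of the 11 mouse comparisons. The share of the 331 genes called for KO minus Het was 1.81% in untreated cells, 0% after 24 h and after 48 h, and 2.72% after 96 h. It was 13.3%, 8.46% and 25.7% for 24, 48 and 96 h minus 0 h in Het cells, 1.51%, 1.51% and 0.906% in KO cells, and 0% for the difference of the 96 h responses. At an unadjusted p under 0.05 limma had 31 genes after 24 h, 9 after 48 h and 42 for the responses, the comparisons without a call. The titles of 3 arrays (replicate 3 of KO 24 h, and 1 and 3 of KO 48 h) name KO cells while their channel fields name Het cells. They were kept as KO, and with these arrays left out Traf4 KO minus Het after 24 h was 2.55, and with them taken as Het it was 1.87. Irf4 itself was not among the mouse features with 1 symbol and was not analysed here.

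Of the pathway lists the mouse array named 2 of the executioner partners (Cycs and Htra2) and 4 of the BCL2 family (Bcl2, Bcl2l11, Bid and Mcl1). None of these 6 passed in KO minus Het at any time or in KO cells over time, and 4 passed in Het cells, where percentages of all genes were those just given. Cycs (cytochrome c, which assembles the apoptosome) rose by 1.98 ± 0.47 (SE) at 24 h (adjusted p = 0.0121) and Bcl2, the anti-apoptotic founder of its family, by 3.04 ± 0.80 at 24 h (0.0172) and 2.83 ± 0.80 at 48 h (0.0383). Htra2, a mitochondrial protease that binds IAPs, fell by 1.75 ± 0.43 at 96 h (0.0104), and Mcl1, an anti-apoptotic protein of activated B cells, by 1.38 ± 0.46 (0.0366). Without the low database range only 1 Het array was left at 0 h and 1 at 24 h, so these values rest on single arrays. Cycs was then 2.30, Bcl2 0.476 and 0.706, Htra2 -0.794 and Mcl1 -0.119. Over all its alternatives the limma adjusted p of Cycs ran from 0.00013 to 0.543. Where only the groups compared were fitted, none of these changes of Cycs, Bcl2, Htra2 and Mcl1 passed (limma adjusted p from 0.124 to 0.638). These calls thus rested on the spread taken from the other groups. With values beyond 6 log2 units missing, Bcl2 differed by 0.00025 at 24 h and -0.209 at 48 h. With the 3 arrays of conflicting labels left out, Bcl2 at 48 h (adjusted p = 0.0919) and Mcl1 at 96 h (0.0684) did not pass, and with them taken as Het both did (0.0112 and 0.0439). Cycs did not pass without Het 24 h replicate 1 (1.53), nor Htra2 without Het 0 h replicate 1 (-1.44).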

How the data were processed

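Per the labels' protocols, Trizol RNA was copied into labelled cDNA. The authors deposited, for every array, a log2 ratio between its channels (base 2 taken from the range of values; how arrays were scanned, background-corrected and normalized was not given in the sources used here) for 15246 human and 12292 mouse features. Depth or signal over background cannot be checked, so the number of arrays limits the precision. Arrays were centred on their median over all features, and features that the platform annotation gives a single symbol were averaged per gene. Limma 3.58.1 in R 4.3.3 (statmod 1.5.0) tested the human ratios against 0 and the mouse groups in 1 model of 23 arrays, 2-sided, with Benjamini-Hochberg adjustment within each comparison. The fits were tested on simulated data. Only 1 dye orientation was hybridised, so dye bias cannot be told apart from the human ratios. Members and lists were chosen with earlier results of these data known. Named were genes of a single sign on all 4 arrays, the largest of these first, the highest and lowest of each role and list, and those past the threshold; other members were added to complete the families. FAS, TNFRSF8, TNFRSF10D and others were shown for their features after their values were seen. Alternatives changed centring, normalization, gene value, extreme values, days, weights, database range, labels and arrays. Promoter windows are from RefSeq (GRCm38.p6), and the GAAA core was added after the longer motifs were not found.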

Additional observations from a re-analysis of the deposited data

Results flagged for a closer look

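Among 48 groups of 4 arrays (46 human genes, and Birc3 and Traf4 in Het cells at 96 h), 5 held an array that stood far from the others by Dixon's test. Chance alone marks about 1 in 20 groups where values are normally distributed. The share over all human genes was not computed, so whether 5 of 48 is unusual on these arrays was not tested. On the day 5 array TNFRSF1B read -3.50 against -1.09 to -0.74 on the others, TRAF5 read -2.69 against -0.05 to 0.49, and CASP8AP2 read 1.30 against 0.17 to 0.26. BIRC5 read 0.69 on day 3 repeat 1 against -1.10 to -0.83. TRAF3IP3, which binds TRAF3, read 0.08 on day 3 repeat 2 against -0.57 to -0.46.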

How the results depend on the processing

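Of 18 named human members 14 kept their sign under all 17 alternatives. Members called were 13 with day means of equal weight, 4 with the day 3 arrays alone, 1 with array weights and 1 in the low database range alone, and 0 otherwise; all human genes called were then 1033, 196, 262 and 342. They were 94 after quantile normalization, 9 with the feature of smallest spread, 1 with deposited values, with centring on named features and with the median of features, 0 in the middle range alone, and 0 to 1 without each array in turn. Day as a random block could not be fitted. Turned signs among the named members were LTA -0.82 (smallest spread) and -0.16 (day 3), and TNF 1.27 (smallest spread). TRAF5 turned to 0.48 (smallest spread), 0.08 (weights), 0.22 (day 3) and 0.42 (middle range). Of the list genes followed, RELA turned to -0.07 (deposited values), -0.01 (weights) and -0.16 (middle range). Without each array in turn TNFRSF6B ran from -0.05 to 0.48, TRAF5 from -0.80 to 0.26 and RELA from -0.13 to 0.29. The cause was not tested.

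In the mouse, members called were 1 for LPS times with array weights, 0 to 1 for KO minus Het and 0 to 2 for LPS times without each array. The shares of all mouse genes called under these settings were not computed. The replicate numbers were not used to pair the arrays. Of 10 pairs with the same number 5 correlated over 0.1, with a median of 0.1 beside -0.03 for other pairs. These values do not settle whether the numbers pair the arrays. The replicate block turned Birc3 KO minus Het at 48 h to 0.0246 and Traf4 at 96 h to 0.00617 and changed no call of either gene. Birc3 KO minus Het turned to -0.202 at 0 h (weights), -0.0308 at 0 h and 0.0722 at 48 h (range as a factor), 0.0647 at 48 h (centred on named features) and 0.172 at 48 h (high range). Centred on named features, Traf4 KO minus Het was 0.13 at 48 h and 0.0679 at 96 h, and KO 96 h minus 0 h was 0.241. Without the low range, with a single Het array at 0 h, Traf4 gave -0.523 (KO minus Het, 0 h) and 0.295 (KO, 96 h minus 0 h). It gave -0.147 for Het, 96 h minus 0 h, and 0.442 for the responses. The high range alone kept a single array per genotype at 0 h and a single Het array at 48 h. There Traf4 gave -0.174 (KO minus Het, 0 h), 0.113 (48 h), -0.147 (Het, 96 h minus 0 h) and 0.093 (responses). Bcl2 in Het cells at 48 h turned to -0.209 with extreme values missing. Without each array in turn, Birc3 KO minus Het ran from -0.225 to 0.321 at 0 h, -1.27 to -0.406 at 24 h and -0.657 to 0.502 at 48 h, its responses from -0.533 to 0.0122, and Traf4 from -0.152 to 0.128 at 48 h, -0.317 to 0.173 at 96 h and -0.88 to 0.295 for KO, 96 h minus 0 h. Causes were not tested; unequal spread of arrays, few arrays and disagreeing features limit all of these values.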
